A study of Rattus norvegicus with 151 samples.

Results

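Mt1, Fkbp5, Tsc22d3, Sgk1, Nr3c1, Hsd11b1 and Dusp1, 7 genes of the glucocorticoid pathway and of metal binding, were followed across all doses of 3 chemicals in rat liver and kidney. They were chosen by name, and each was read from the probe set annotated to it, the brightest of a gene in a tissue where there were several. The 7 genes were measured by 10 of 31099 probe sets and made up 7 of 14218 named genes, and all 7 passed the filter on dim probe sets in both tissues, beside 11624 genes in liver and 11501 in kidney. Male Harlan Sprague-Dawley rats, 6 to 8 weeks old, received 5 daily doses by gavage, and RNA of liver and kidney was put on Affymetrix expression arrays. The chemicals were those of the West Virginia spill. MCHM is 4-methylcyclohexanemethanol, a ring alcohol, crude MCHM is the technical mixture that holds it, and PPH is propylene glycol phenyl ether, an aromatic glycol ether. The 6 doses of MCHM and of crude MCHM were 500, 300, 100, 10, 1 and 0.1 mg/kg. The 5 doses of PPH were 1000, 500, 100, 10 and 1 mg/kg. Each chemical had its own vehicle group of rats given corn oil alone, so that treated and control rats shared strain, sex, age, vehicle and handling. Of 151 arrays 150 were used, 81 of liver and 69 of kidney, in 40 groups of 2 to 5 arrays. The smallest groups were kidneys of crude MCHM, with 2 arrays at each dose from 0.1 to 100 mg/kg and 3 at 300 mg/kg, at 500 mg/kg and in the vehicle. The labels did not say in words that each array was a separate rat, so p-values measure the spread between these samples.

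Glucocorticoids bind the receptor encoded by Nr3c1, which then leaves its chaperone complex, enters the nucleus and binds DNA near its target genes. Hsd11b1 regenerates active corticosterone from its inactive form inside the cell, mainly in liver, while Fkbp5, Tsc22d3, Sgk1 and Dusp1 are widely used as readouts of receptor activity. Metallothioneins such as Mt1 bind zinc and other metals and are induced by metals through the factor MTF1, and in many cells by glucocorticoids as well.

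The promoters of the metallothionein genes are shown because Mt1 and its neighbour Mt2A varied together in liver, as described further on. Both lie on the minus strand of chromosome 19 in the rat build GRCr8, Mt1 at chr19:10832976-10833225 and Mt2A at chr19:10838709-10838958, and the 250 bases before the RefSeq start site are given 5′ to 3′ on the gene's strand. Capitals mark every match, on either strand, to TGCNCNC, a loose form of the core of the metal response element.
Mt1: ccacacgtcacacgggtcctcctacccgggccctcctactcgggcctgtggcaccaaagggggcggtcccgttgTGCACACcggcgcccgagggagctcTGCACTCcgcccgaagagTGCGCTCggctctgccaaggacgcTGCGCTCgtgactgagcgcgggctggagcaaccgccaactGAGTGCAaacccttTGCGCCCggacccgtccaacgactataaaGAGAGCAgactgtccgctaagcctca
Mt2A: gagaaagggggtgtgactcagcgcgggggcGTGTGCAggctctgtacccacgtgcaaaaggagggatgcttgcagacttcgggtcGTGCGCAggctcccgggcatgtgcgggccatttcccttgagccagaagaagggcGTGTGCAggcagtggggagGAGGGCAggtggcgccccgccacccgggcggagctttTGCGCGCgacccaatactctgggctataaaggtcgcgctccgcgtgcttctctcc
Mt1 held 7 matches and Mt2A 5. Of 33469 rat promoter windows of the same length, 43.4% held at least 1 match, 4.21% held 3 or more and 0.37% held 5 or more. The same windows of Sgk1, with 3 RefSeq start sites, held 1, 0 and 1 match, Dusp1 held 1, and Fkbp5 and the 3 start sites of Tsc22d3 held 0. The glucocorticoid response element was searched on both strands as the half-sites AGAACA and TGTTCT with 3 bases between them. It was found in 0 of the windows of Mt1, Mt2A, Fkbp5, Tsc22d3, Sgk1 and Dusp1, and in 4 (0.012%) of all windows. A match is a run of letters and not a shown binding site, and this window leaves out more distant elements.

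The median log2 value of an array ran from 5.215 to 5.376, and the median correlation of an array with those of the same chemical and organ was at least 0.987. The kidney array labelled MCHM 0.1 mg/kg, replicate 13, was left out because its values stood 1 row away from their names, with a median correlation with the other kidneys of 0.401 as deposited and 0.952 after a shift of 1 row. Hepatocyte markers were high in liver and proximal tubule markers high in kidney (all 7 hepatocyte markers on the array, of 8 listed, passed the filter level in every liver). Their mean was 4.19 to 5.07 in kidneys of the vehicles and highest doses, except for 1 MCHM vehicle kidney at 6.88. Of the 5 adrenal cortex markers 4 were on the array. Cyp11b1, which makes corticosterone in the adrenal gland, was above the filter level in 0 arrays of either tissue, while Cyp11a1 was above it in 69 kidneys and 51 livers, Star in 1 kidney and 48 livers, and Cyp21a1 in 8 kidneys and 1 liver. Their mean was 3.89 to 4.50 in all vehicle and highest-dose groups of both organs. Fat-cell markers were high in the kidney of MCHM 300 mg/kg, replicate 36, where Fabp4 read 13.34 against a mean of 7.32, and hepatocyte markers were high in the kidney of crude MCHM 1 mg/kg titled MCHM-119, where Alb read 11.06 against a mean of 4.95. Neither array belonged to a highest dose, and leaving out any single kidney of MCHM or of crude MCHM left 0 of the 7 genes called at 500 mg/kg. Beta-actin control probe sets, 5′ minus 3′, are a sign of RNA quality. The difference lay between −1.42 and −1.17 in kidneys of MCHM, between −3.88 and −1.92 in those of crude MCHM and between −3.16 and −2.34 in those of PPH. In livers it lay between −2.203 and −1.691 for MCHM, between −1.425 and −1.103 for crude MCHM and between −1.438 and −1.061 for PPH. In both organs the MCHM set did not overlap the others. The difference thus moved with the chemical set, and its part in differences between sets was not tested. In kidneys of crude MCHM it read −2.82, −2.68 and −2.17 in vehicles and −2.16, −2.05 and −1.92 at 500 mg/kg, with no overlap. It followed no course over the doses between, with −2.015 and −2.036 at 0.1 mg/kg and −3.88 in a kidney at 300 mg/kg. In kidneys of PPH the vehicles read −3.07, −2.91, −2.82, −2.38 and −2.34. The kidneys at 1000 mg/kg read −2.54 to −2.37, within that range but above its lower values. In whole organs, fewer cells of a type and less RNA per cell cannot be told apart.

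Before any comparison, the genes differed in how steady they were between arrays of one group. Hsd11b1 in liver was the steadiest of the 7. It read between 12.90 and 13.32 log2 units over 81 arrays, a 1.34-fold range, and its SD within groups of 0.080 lay at percentile 4.83 of all genes tested. Nr3c1, the receptor, had an SD within groups of 0.20 in liver and 0.13 in kidney, at percentiles 71.8 and 40.6. The immediate responders were the least steady. Dusp1, a phosphatase that switches off MAP kinases, read between 8.13 and 12.002 in liver, a 14.6-fold range, with an SD within groups of 0.95 at percentile 99.9. Sgk1, a kinase that raises sodium transport, ranged 8.11-fold in liver with an SD of 0.76, at percentile 99.7, and Mt1 ranged 4.63-fold with an SD of 0.42, at percentile 98.1. The signal of Mt1 was rather dim. Its mean was 6.38 in liver and 5.91 in kidney, at percentiles 36.3 and 24.3 of the levels of all genes tested. The median gene had an SD within groups of 0.162 in liver and 0.145 in kidney. In kidney Sgk1 and Dusp1 varied less than in liver, with SDs of 0.41 and 0.33, while Mt1 kept an SD of 0.42 and a 6.78-fold range, and was below the filter level of 4.66 in 2 of 69 kidneys (67 were above it). Fkbp5, a co-chaperone that lowers the receptor's affinity for its hormone, had SDs of 0.24 and 0.31 in liver and kidney, and Tsc22d3, which encodes the anti-inflammatory protein GILZ, of 0.22 and 0.23.

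**Figure D1:**
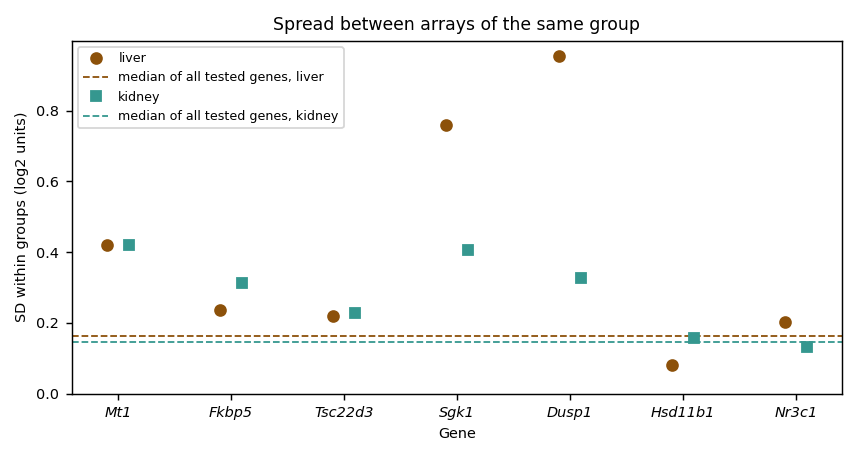
SD within groups in log2 units (points) of each of the 7 genes over 81 liver and 69 kidney arrays, with the median over all genes tested as dashed lines (0.162 in liver, 0.145 in kidney). Dusp1 and Sgk1 in liver (0.95 and 0.76) lie far above the lines, and Hsd11b1 in liver (0.080) lies below them.

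None of the 7 genes passed the test at any dose. Of 238 comparisons of a gene with its vehicle (7 genes at 34 combinations of tissue, chemical and dose) 0 reached a limma p, adjusted by Benjamini-Hochberg over all genes tested, under 0.05, and 26 had an unadjusted p under 0.05, where 7.83% of all gene comparisons did. The smallest adjusted p was 0.0927, for Tsc22d3 in liver at 500 mg/kg crude MCHM. The changes ran from −1.10 on the log2 scale, for Dusp1 in liver at 1 mg/kg MCHM, to 1.20, for Sgk1 in liver at 500 mg/kg MCHM. Few other genes were called at most doses. In liver the share of tested genes called was 0.0265% at 300 and 0.512% at 500 mg/kg MCHM, 1.01% at 300 and 0.675% at 500 mg/kg crude MCHM, and 0.00882% at 10, 0.0882% at 500 and 1.75% at 1000 mg/kg PPH. In kidney it was 0.0177% at 500 mg/kg MCHM and 2.03% at 1000 mg/kg PPH, and it was 0% at every dose of crude MCHM and at all remaining doses. A count of 0 among 7 genes is therefore close to the background.

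**Figure D2:**
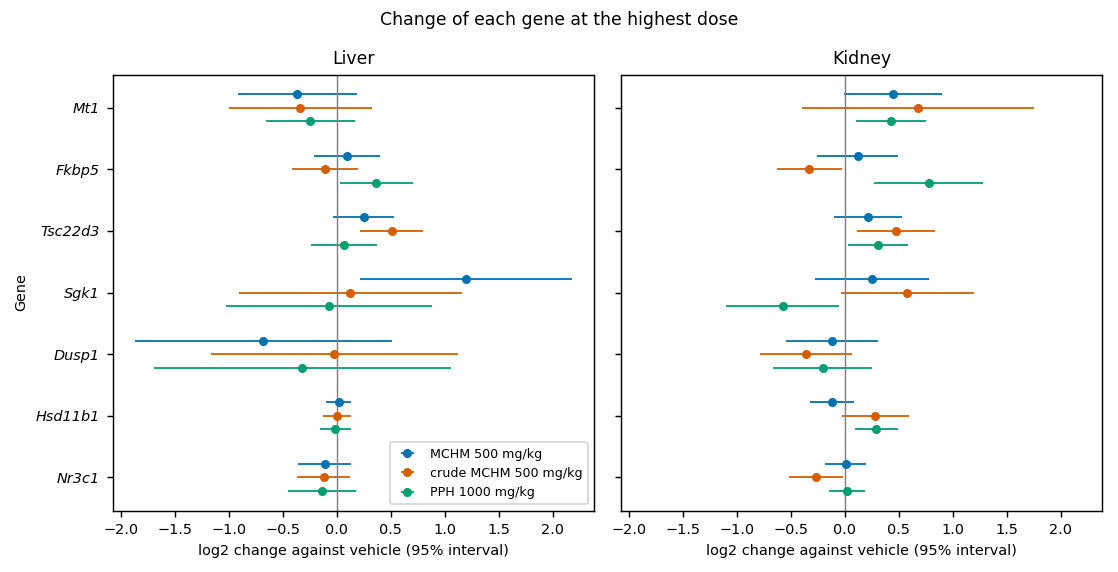
Log2 change of each gene at the highest dose against its vehicle (points) with its 95% interval (bars) for 3 chemicals in liver and kidney. Sgk1 at 500 mg/kg MCHM in liver (1.20) and Fkbp5 at 1000 mg/kg PPH in kidney (0.78) lie farthest from 0, and no change passed the test.

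The receptor and the enzyme that feeds it stayed close to their vehicles in liver. Nr3c1 in liver lay below its vehicle mean by −0.11, −0.12 and −0.14 on the log2 scale at the highest doses of MCHM, crude MCHM and PPH (limma adjusted p = 0.743, 0.719 and 0.749), and Hsd11b1 differed by 0.017, 0.0018 and −0.013 (adjusted p = 0.934, 0.994 and 0.966). In kidney Nr3c1 differed by 0.0072 at 500 mg/kg MCHM and by 0.020 at 1000 mg/kg PPH. The 3 kidneys of crude MCHM 500 mg/kg read 8.93, 8.96 and 8.99 for Nr3c1, and the 3 of its vehicle 9.04, 9.28 and 9.36. All treated values were below all vehicle values. Treated and vehicle arrays did not overlap for 18.6% of all genes in this comparison. The difference of −0.27 did not pass the test (adjusted p = 0.374), and it was −0.064 with the mean of both probe sets and −0.17 with the beta-actin difference as a covariate. The brightest probe set of Nr3c1 and its dimmer one correlated at 0.47 over liver arrays and at only 0.0751 over kidney arrays, so the kidney values rest on the brighter one alone.

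Hsd11b1 in kidney was higher after PPH, short of the threshold. The 5 vehicle kidneys read 12.32, 12.63, 12.65, 12.75 and 12.82 log2 units, and the 4 of 1000 mg/kg read 12.80, 12.88, 12.90 and 13.11. The lowest treated kidney overlapped the highest vehicle kidney, and the other 3 lay above all vehicles. The change was 0.29 (SE 0.096, 95% interval 0.092 to 0.49, adjusted p = 0.13), and a change of 0.30 was already there at 10 mg/kg (adjusted p = 0.566), with 0.21 at 100 and 0.25 at 500 mg/kg. The vehicle groups of the sets were not level. Vehicle kidneys of the PPH set were 0.27 log2 units below those of the MCHM set, with a difference of −0.27 (SE 0.099, adjusted p = 0.032), which passed the test, and vehicles of crude MCHM were lower than those of MCHM by the same amount, −0.27 (adjusted p = 0.0792), while PPH and crude MCHM vehicles differed by 0.0026 (adjusted p = 0.995). The MCHM vehicle kidneys read 12.54, 12.85, 12.97, 13.05 and 13.09, so the PPH kidneys at 1000 mg/kg lay inside their range except for the highest one. The vehicle difference lost its call when any of 5 single arrays was left out (the MCHM vehicles numbered 4, 5 and 6, and PPH-203 and PPH-205).

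Tsc22d3 came closest to a call. In liver the 4 vehicle rats of crude MCHM read 8.56, 8.67, 8.77 and 8.93 log2 units, and the 4 at 500 mg/kg read 9.07, 9.24, 9.29 and 9.37. The groups did not overlap, as for 8.37% of all genes. The change was 0.51 (SE 0.14, 95% interval 0.22 to 0.80), or 1.42-fold, with an adjusted p of 0.0927. It did pass with array weights (0.50, adjusted p = 0.0453) and without the crude MCHM 100 mg/kg array MCHM-131 (adjusted p = 0.0474), and over the alternatives it lay between 0.45 and 0.57 with adjusted p from 0.0453 to 0.259. Lower doses were higher than the vehicle too, by 0.32 at 0.1, 0.37 at 10 and 0.40 at 100 mg/kg (adjusted p = 0.788, 0.712 and 0.496). The means of all 6 treated groups, 8.89 to 9.24, lay above the vehicle mean of 8.73.

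The vehicle groups of the 3 sets were compared with one another as well. Tsc22d3 read 8.87, 9.18, 9.22, 9.28 and 9.63 in the vehicle livers of MCHM and 8.87, 8.97, 9.24, 9.41 and 9.45 in those of PPH. The highest crude MCHM vehicle liver lay above only the lowest of each of the other vehicle groups. The vehicle difference, crude MCHM minus MCHM, was −0.50 (SE 0.14, adjusted p = 0.0141), which passed the test. PPH minus crude MCHM was 0.45 (adjusted p = 0.0672), which did not. The vehicle livers of crude MCHM enter these differences and the dose changes alike. The beta-actin difference did not overlap between livers of the MCHM and crude MCHM sets, and its part in the vehicle difference was not tested. The called difference lost its call without the MCHM vehicle numbered 4 or the crude MCHM vehicle MCHM-106. The share of all genes that passed between liver vehicles was 11.4% for crude MCHM against MCHM, 17.4% for PPH against MCHM and 2.55% for PPH against crude MCHM, and in kidney 22.3%, 31.5% and 1.76%, so a called difference between vehicles was common. After MCHM itself, Tsc22d3 read 9.34, 9.46, 9.57 and 9.58 at 500 mg/kg, within reach of its highest vehicle liver, with a change of 0.25 (adjusted p = 0.456). After 1000 mg/kg PPH it differed by 0.070 in liver (adjusted p = 0.883).

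**Figure D3:**
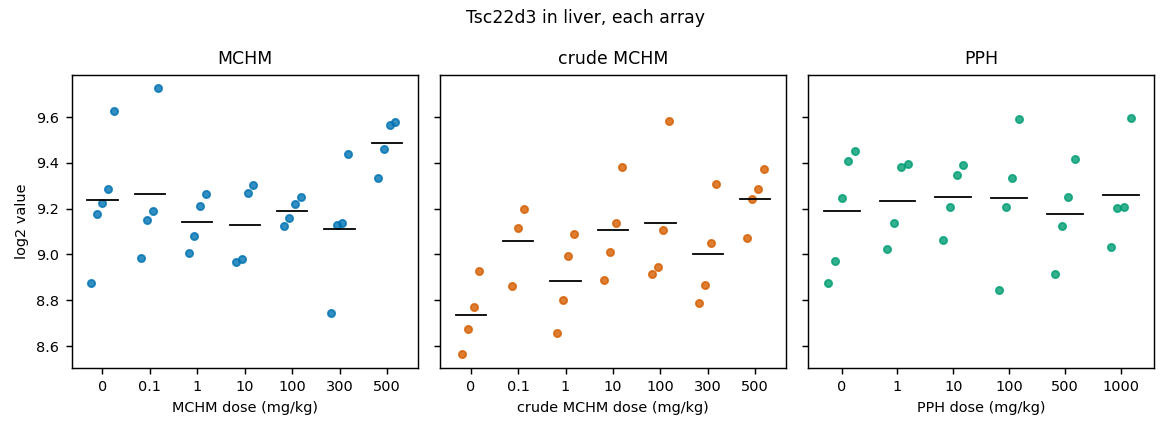
Log2 value of Tsc22d3 in each liver array (points) by dose in mg/kg for 3 chemicals, with group means. The vehicle livers of crude MCHM (mean 8.73) lie below the vehicles of MCHM (9.24) and PPH (9.19), and the livers at 500 mg/kg crude MCHM (9.07 to 9.37) lie within the range of those other vehicles.

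In kidney, 1000 mg/kg PPH gave the most small unadjusted p-values. There 5 of 7 had an unadjusted limma p under 0.05, as did 15.4% of all genes, and 0 were called. Fkbp5 differed most. The vehicle kidneys read 6.80, 6.91, 7.02, 7.20 and 7.73 log2 units, and those at 1000 mg/kg read 6.95, 8.09, 8.24 and 8.36. Of the treated kidneys 3 lay above every vehicle, and the array titled PPH-237 lay among the vehicles. The change was 0.78 (SE 0.24, 95% interval 0.27 to 1.28, adjusted p = 0.104), or 1.71-fold. Without PPH-237 it was 1.10 with an adjusted p of 0.00458, which passed the test, and over all alternatives it lay between 0.62 and 1.10 with adjusted p from 0.00458 to 0.302. In a fit of all chemicals together the adjusted p was 0.0227.

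PPH-237 also set the value of Tsc22d3 in kidney. The vehicles of PPH read 8.81, 8.89, 9.22, 9.24 and 9.28, and the kidneys at 1000 mg/kg read 8.88, 9.53, 9.58 and 9.59. PPH-237 was the low one, and the other 3 lay above all vehicles. The change was 0.31 (adjusted p = 0.279), and without PPH-237 it was 0.48 with an adjusted p of 0.0315. The liver array of the same number was also the lowest of its group for Fkbp5, where vehicles read 6.59, 7.06, 7.15, 7.19 and 7.32 and treated livers 7.08, 7.47, 7.49 and 7.68. That liver change was 0.37 (SE 0.16, adjusted p = 0.295). Nothing in the labels sets PPH-237 apart.

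Sgk1 in kidney was lower after PPH than in the vehicle, short of the threshold. Vehicle kidneys read 10.30, 10.89, 11.15, 11.23 and 11.65, and those at 1000 mg/kg 10.31, 10.36, 10.45 and 10.76. The treated kidneys were all below 4 of the 5 vehicles and above the lowest one. The change was −0.58 (adjusted p = 0.272). Dusp1 overlapped its vehicle, with 8.43, 8.44, 8.54, 8.67 and 8.97 in vehicles against 8.16, 8.16, 8.40 and 8.89 (change −0.21, adjusted p = 0.726). In the same kidneys Fkbp5 and Tsc22d3 were thus above their vehicle means and Sgk1 was below its own, and none of these differences passed the test.

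**Figure D4:**
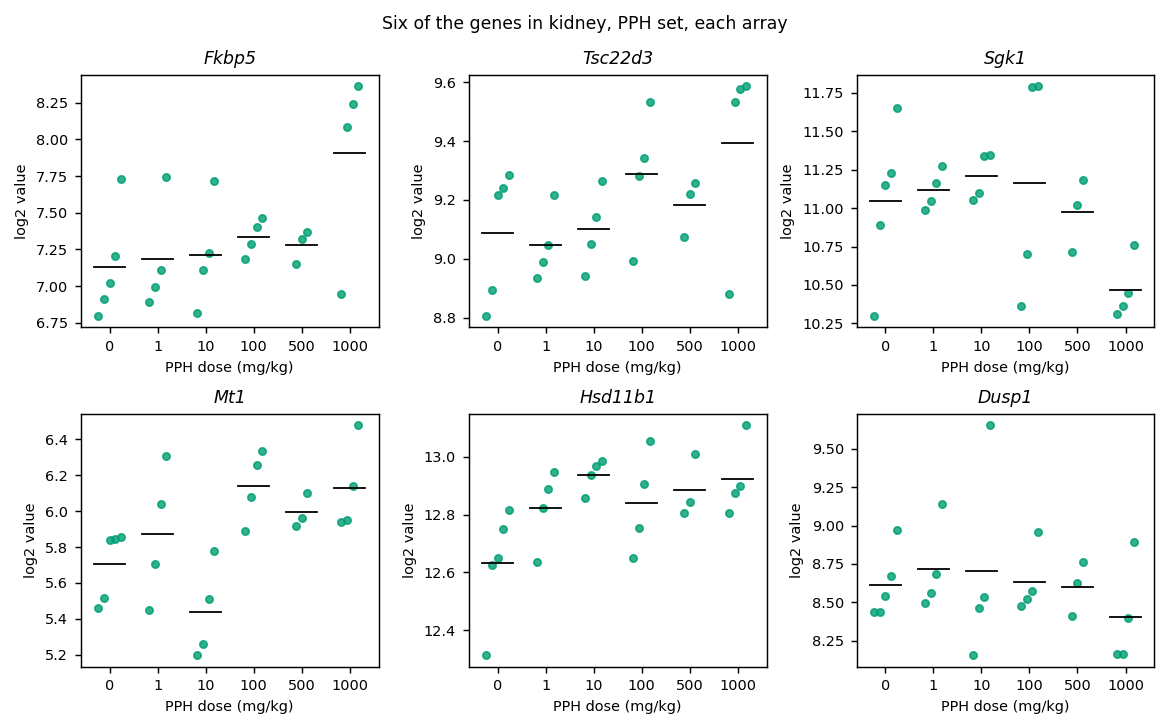
Log2 values in each kidney array (points) by PPH dose in mg/kg, with group means. PPH-237 at 1000 mg/kg reads 6.95 for Fkbp5 and 8.88 for Tsc22d3, below the other 3 kidneys of that dose, which read 8.09 to 8.36 and 9.53 to 9.59.

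After crude MCHM the kidney had 3 vehicle arrays and 3 at the highest dose. Tsc22d3 read 8.95, 9.001 and 9.10 in vehicles and 9.26, 9.60 and 9.60 at 500 mg/kg (change 0.47, adjusted p = 0.317). Sgk1 read 10.44, 10.93 and 11.07 in vehicles and 11.25, 11.32 and 11.61 at that dose (change 0.58, adjusted p = 0.422). Fkbp5 read 7.19, 7.25 and 7.66 in vehicles and 6.99, 7.01 and 7.11 after treatment (change −0.33, adjusted p = 0.36). Groups did not overlap for these genes, as for 18.6% of all genes, and none passed the test. Without the vehicle MCHM-106 the difference of Fkbp5 was −0.18. The beta-actin difference moved with these groups, and with it as a covariate Tsc22d3 was 0.56, Sgk1 0.80 and Fkbp5 −0.28 (adjusted p = 0.573, 0.573 and 0.657). At 10 mg/kg, with 2 arrays, Fkbp5, Tsc22d3 and Sgk1 were 0.42, 0.52 and 0.94 above the vehicle, so Fkbp5 lay on opposite sides of its vehicle at 10 and 500 mg/kg.

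Sgk1 in liver showed the largest difference and also one of the widest spreads. Vehicle livers of MCHM read 8.52, 8.78, 8.86, 10.07 and 10.28 log2 units, and livers at 500 mg/kg read 9.57, 10.44, 10.64 and 11.36. Among the treated livers 3 lay above all vehicles, and the vehicles themselves fell into 3 low and 2 high livers. The change was 1.20 (SE 0.48, 95% interval 0.22 to 2.18, adjusted p = 0.249), or 2.30-fold, and at 10 mg/kg it was 1.14 (adjusted p = 0.78). After crude MCHM and PPH the liver differed from its vehicle by 0.13 and −0.073 (adjusted p = 0.95 and 0.972). Dusp1 in liver was −0.68 at 500 mg/kg MCHM with an interval from −1.87 to 0.51, wide enough to hold large changes both ways. At 1000 mg/kg PPH 3 livers read 8.78, 8.94 and 8.97 and PPH-235 read 12.002, the highest of all livers.

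Mt1 lay on opposite sides of its vehicle in liver and kidney at the highest doses of each chemical. From 0.1 to 100 mg/kg MCHM it was above the vehicle in both organs, by 0.34 to 0.53 in liver and by 0.27 to 0.54 in kidney, and over all chemicals it was above in 10 of 17 dose groups in liver and 14 of 17 in kidney. In liver it was −0.36, −0.34 and −0.24 at the highest doses of MCHM, crude MCHM and PPH (adjusted p = 0.595, 0.713 and 0.631), and in kidney 0.45, 0.68 and 0.42 (adjusted p = 0.549, 0.577 and 0.184). None passed the test. In kidneys of crude MCHM the beta-actin difference did not overlap between the vehicles and 500 mg/kg. With it as a covariate the value of Mt1 there was 0.088 (limma adjusted p = 0.971) in place of 0.68. In kidney the PPH vehicles read 5.46, 5.52, 5.84, 5.84 and 5.86 and the kidneys at 1000 mg/kg 5.94, 5.95, 6.14 and 6.48, with no overlap, as for 5.44% of all genes, and an SE of 0.16. At 300 mg/kg MCHM the kidneys read 6.07, 6.37, 6.40 and 6.61 against 5.63, 5.73, 5.74, 5.76 and 5.97 in vehicles (change 0.60, adjusted p = 0.884), and at 500 mg/kg they read 5.77, 6.29, 6.30 and 6.50. The groups did not overlap at 300 mg/kg, as for 1.37% of all genes, and 1 kidney lay within the vehicle range at 500 mg/kg. Fat-cell markers averaged 5.11 to 8.28 in the kidneys at 500 mg/kg MCHM and 5.13 to 6.02 in their vehicles, and their part in the values of Mt1 was not tested. In liver the MCHM groups overlapped at 300 mg/kg, with 5.08, 5.58, 5.91 and 6.43 against 5.78, 6.08, 6.11, 6.44 and 6.58, and at 500 mg/kg the livers fell into 2 low (5.16 and 5.24) and 2 high ones (6.43 and 6.51).

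The difference between tissues was tested itself. Liver minus kidney, the change of Mt1 differed by −1.05 at 300 mg/kg MCHM, by −0.81 at 500 mg/kg MCHM and by −0.67 at 1000 mg/kg PPH (limma adjusted p = 0.757, 0.534 and 0.242), and by −1.01 at 500 mg/kg crude MCHM (adjusted p = 0.479). Hsd11b1 differed by −0.30 at 1000 mg/kg PPH (adjusted p = 0.233). Over the 17 doses 0 such differences of the 7 genes passed, and 9 had an unadjusted limma p under 0.05. The share of all genes with such an unadjusted p was not counted, so the 9 have no background here. After adjustment, 0.0759%, 0.0587% and 0.748% of all genes passed at the highest doses of MCHM, crude MCHM and PPH.

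Trends over the rank of the dose gave the same picture. Of 42 trends 0 passed the test, and 8 had an unadjusted p under 0.05. Of all genes 17%, 16.6% and 13.1% had such a p in liver after MCHM, crude MCHM and PPH. In kidney 9.42%, 8.81% and 13% did. The share of all genes with a called trend was 2.38% for MCHM, 1.91% for crude MCHM and 1.32% for PPH in liver, and 0.124%, 0% and 1.58% in kidney. In kidney after PPH the change per dose step was 0.091 for Mt1, 0.12 for Fkbp5, 0.061 for Tsc22d3, 0.044 for Hsd11b1 and −0.096 for Sgk1 (adjusted p = 0.11, 0.176, 0.251, 0.235 and 0.351). Without PPH-237, 2 of the 7 trends passed, and without the 1 mg/kg array PPH-214, 1 did. In liver it was −0.091 for Mt1 after MCHM (adjusted p = 0.19), 0.059 for Tsc22d3 after crude MCHM (adjusted p = 0.107) and 0.063 for Fkbp5 after PPH (adjusted p = 0.329).

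The chemicals were compared at matched doses, each change taken against its own vehicle. MCHM and crude MCHM were compared 84 times, and 0 differences passed the test after adjustment over all genes. An unadjusted p under 0.05 was reached by 5, a share that was not counted over all genes. At 500 mg/kg in kidney 0.0261% of all genes differed, and Hsd11b1 differed by −0.40 (95% interval −0.73 to −0.070, adjusted p = 0.27), MCHM minus crude MCHM, and by −0.24 without the crude MCHM vehicle MCHM-105. Tsc22d3 in liver differed by −0.26 at 500 mg/kg with an interval from −0.68 to 0.16, and Sgk1 by 1.07 with an interval from −0.37 to 2.51, so differences of these sizes were not resolved. Sgk1 in kidney differed by −1.35 at 10 mg/kg, against 2 arrays of crude MCHM. PPH carries an aromatic ring and an ether in place of the saturated ring of MCHM. It was compared with MCHM 56 times at doses up to 500 mg/kg, and 0 differences passed. An unadjusted p under 0.05 was reached by 4, again without a count over all genes. In liver 0.0086% of all genes differed at 10 mg/kg and 0.0344% at 500 mg/kg, where Sgk1 differed by −1.42, PPH minus MCHM (95% interval −2.82 to −0.019, adjusted p = 0.497), and Mt1 by 0.36 (interval −0.41 to 1.14). In kidney at 500 mg/kg Fkbp5 differed by 0.029 with an interval from −0.58 to 0.63. The kidney values at 1000 mg/kg PPH had no matching dose of MCHM.

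Within groups of the same dose, 4 of the 7 genes each varied in liver along with their own values in kidney. Each gene was paired with itself and not with the other genes. Liver and kidney arrays that carry the same number in the labels, which do not say that it is the animal, were paired over 65 numbers in 20 groups, and each value was taken as its deviation from the group mean. Mt1 correlated between the organs at r = 0.565 and rho = 0.496 (permutation within groups, p = 0.00058 and 0.00086). Dusp1 correlated at r = 0.534 and rho = 0.52 (permutation p = 0.00047 and 0.00025), Fkbp5 at r = 0.436 and rho = 0.412 (permutation p = 0.00341 and 0.00379) and Tsc22d3 at r = 0.421 and rho = 0.455 (permutation p = 0.00517 and 0.0016). The remaining 3 of the 7 relations were near 0, with r of −0.138 for Sgk1, 0.111 for Nr3c1 and −0.0983 for Hsd11b1 (permutation p = 0.339, 0.365 and 0.549). These p-values are two-sided and not adjusted. Over 11031 genes measured in both tissues the median r was 0.0793 and the 95th percentile 0.398, which the 4 genes exceeded. With values centred on the chemical set Mt1 (r = 0.316) lay below the 95th percentile of 0.386, and with the mean of all probe sets Fkbp5 (r = 0.364) lay below that of 0.398.

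Leaving out the 2 numbers farthest from the median in liver gave r of 0.433 for Mt1, 0.492 for Dusp1, 0.455 for Fkbp5 and 0.467 for Tsc22d3. Within the chemical sets the r of Mt1 was 0.409 over 27 numbers of MCHM, 0.782 over 16 of crude MCHM and 0.456 over 22 of PPH. In the same order it was 0.511, 0.398 and 0.605 for Dusp1, 0.379, 0.397 and 0.502 for Fkbp5, and 0.337, 0.707 and 0.434 for Tsc22d3. Groups of crude MCHM with 2 numbers give deviations that mirror each other, and the pair at 300 mg/kg, at 0.86 and −0.86 in liver and 1.07 and −1.07 in kidney, was the farthest out for Mt1. The low kidney of that pair, MCHM-134, read 4.23, below the filter level of 4.66. Its beta-actin difference of −3.88 was the lowest of all kidneys. In the pair at 1 mg/kg the kidney MCHM-120 read 4.63, also below that level, and MCHM-119 was the kidney with high hepatocyte markers. The part of these kidneys in the r of 0.782 was not tested. Liver and kidney lay on the same side of their group means in 49 of 65 numbers for Tsc22d3, 45 for Fkbp5 and 43 each for Mt1 and Dusp1. For Sgk1, Nr3c1 and Hsd11b1 they did so in 27, 32 and 31. In these counts the 2 numbers of a mirrored pair agree or disagree together. Vehicle and treated groups both enter these values, and taking deviations from the group mean removes the mean effect of dose.

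**Figure D5:**
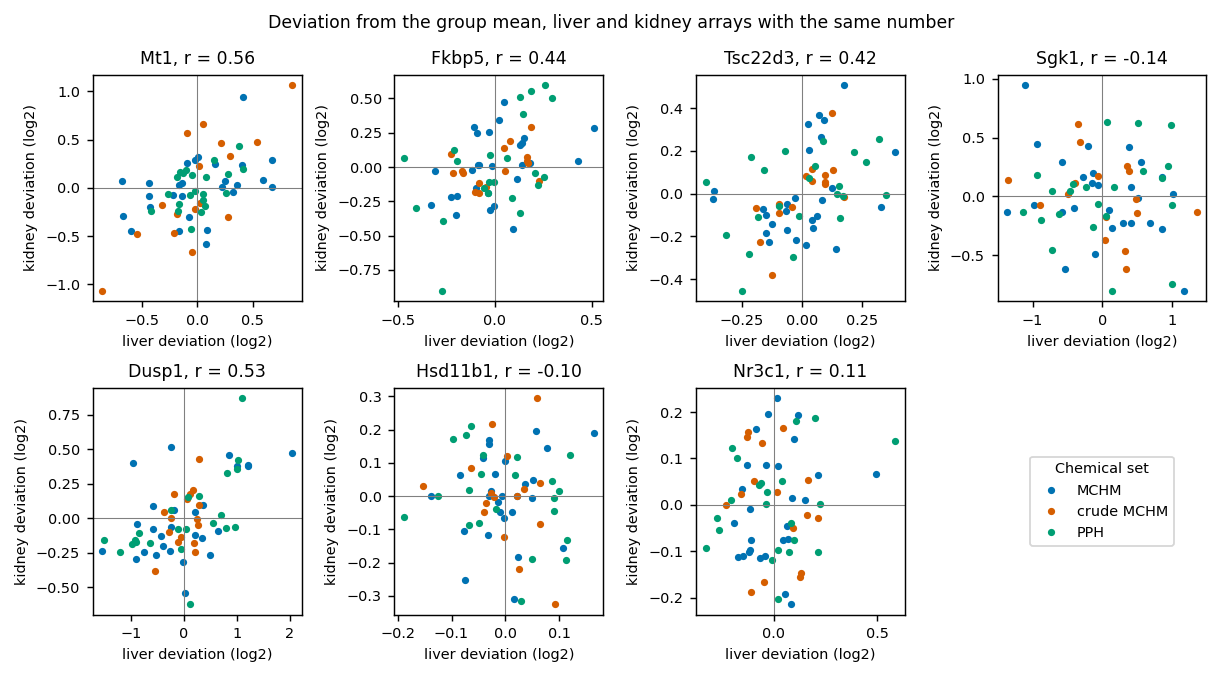
Deviation from the group mean in kidney (log2) against that in liver (log2) for the 65 numbers shared by both organs (points), coloured by chemical set. Mt1 (r = 0.565), Dusp1 (0.534), Fkbp5 (0.436) and Tsc22d3 (0.421) slope upward, and Sgk1 (−0.138), Nr3c1 (0.111) and Hsd11b1 (−0.0983) do not.

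The genes most like each of the 7, by Pearson's r of deviations from the group mean over 81 livers or 69 kidneys, are given as a description. In liver Mt1 was most like Mt2A, the metallothionein gene beside it whose promoter is printed with its own (r = 0.814, and 0.771, 0.91 and 0.734 within the MCHM, crude MCHM and PPH sets), while the next genes reached 0.569 (Dnaaf5) and 0.565 (Rnase4). In kidney Mt2A was not among the 3 most like Mt1, which were Dnajb6 (0.676), Zranb1 (0.599) and Glg1 (0.597). These kidney values were uneven between the MCHM, crude MCHM and PPH sets and highest in crude MCHM. In that order they were 0.398, 0.869 and 0.543 for Dnajb6, 0.181, 0.934 and 0.232 for Zranb1, and 0.549, 0.836 and 0.181 for Glg1. Dusp1 was most like Ier2 (0.898), Csrnp1 (0.874) and Jun (0.842) in liver, all genes of the immediate early kind, and most like Irs2 (0.782), Csrnp1 (0.748) and Phlda2 (0.688) in kidney. Csrnp1 was the gene shared by both lists. Hsd11b1 in kidney was most like Tgfbi (0.879), Slc22a24 (0.876) and Arg2 (0.869), and in liver its closest were Slc46a1 (0.603), Apoc1 (0.603) and Marveld1 (0.567). The 99th percentile of r over all genes was 0.754 for Hsd11b1 in kidney, and 0.347 to 0.552 for the other members there. A high r with Hsd11b1 in kidney was thus shared by many genes.

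Fkbp5 in liver was most like Nr5a2 (0.75), the nuclear receptor LRH-1 that controls bile acid genes, then Shld2 (0.702) and Lrig1 (0.691), and in kidney like Spa17 (0.591), Creld2 (0.578) and Mterf3 (0.549). Tsc22d3 was most like Zfp354a (0.63), Rasgef1b (0.617) and Usp2 (0.594) in liver, and like Nat8f3 (0.596), the clock gene Per2 (0.547) and Crls1 (0.53) in kidney. Within the kidneys of crude MCHM these last 3 were −0.0986, 0.186 and 0.596. Sgk1 was most like Skil (0.629), Rtp3 (0.605) and Slc25a25 (0.596) in liver and Tnfaip8 (0.775), Psph (0.767) and Tsku (0.73) in kidney. Nr3c1 was most like Rbpj (0.765), Nck1 (0.763) and Rcan1 (0.755) in liver and Golim4 (0.832), Mospd2 (0.71) and Epas1 (0.709) in kidney.

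Of the rest of the pathway, 7 lists holding 78 genes besides the members were read from the same fits at the highest doses. The lists were chosen with earlier results of these data known. Of all genes 0.512%, 0.675% and 1.75% were called in liver after MCHM, crude MCHM and PPH. In liver the carriage and metabolism of corticosteroids held the calls shared by all chemicals. Serpina6, which encodes the corticosteroid-binding globulin of plasma, fell from 12.32 to 11.74 after MCHM (change −0.58, adjusted p = 0.00328), from 12.31 to 11.90 after crude MCHM (−0.41, adjusted p = 0.0256) and from 12.46 to 11.74 after PPH (−0.72, adjusted p = 0.00267), and no treated liver lay above its vehicle mean. The mean of the 7 hepatocyte markers was also lower at these doses without overlap, at 13.79 to 13.82 against 13.84 to 13.93 for MCHM, 13.83 to 13.90 against 13.91 to 13.95 for crude MCHM and 13.74 to 13.82 against 13.85 to 13.97 for PPH, and its part in the falls of Serpina6 was not tested. Serpina6 was the 1 of 8 tested genes of its list to fall in each case, and Ugt2b1, a glucuronosyltransferase, rose by 0.42 after PPH (adjusted p = 0.0393). Of 27 tested glucocorticoid-induced genes, members included, 1 rose after MCHM, 0 after crude MCHM and 0 after PPH. That gene was Tat, the tyrosine aminotransferase long used as a hormone-induced liver enzyme, which rose by 1.39 (adjusted p = 0.0298). Its list's median change was 0.032 after MCHM, beside 0.0064 for all genes. Of 10 tested kidney corticosteroid targets Atp1b1, a subunit of the sodium pump, rose in liver by 0.53 after MCHM (adjusted p = 0.0272) and by 0.49 after PPH (adjusted p = 0.0253), and it was 0.35 higher after crude MCHM without passing (adjusted p = 0.228). These counts depended on single arrays. The count of list genes called, 3 after MCHM, was 1 without the MCHM vehicle numbered 3, 4 or 7 or the 500 mg/kg array numbered 43. It was 3 after PPH and 1 without PPH-202, PPH-235 or PPH-236, and Serpina6 lost its call after crude MCHM without MCHM-105, MCHM-106, MCHM-139, MCHM-140 or MCHM-144.

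The remaining lists held 0 calls in liver at the highest doses. They were the receptor and chaperones (10 tested), metallothioneins and zinc transport (10), immediate early genes (10) and clock genes (11). In the metallothionein list Mt2A was −1.03 after MCHM (adjusted p = 0.457) and −0.68 after PPH (adjusted p = 0.641) in liver, and 0.40 and 0.30 in kidney (adjusted p = 0.631 and 0.42), on the same sides as Mt1. Among immediate early genes Egr1 was −2.32 after MCHM (SE 0.65, adjusted p = 0.1), a large difference among widely scattered livers.

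In kidney after MCHM and crude MCHM 0 genes of any list passed, where 0.0177% and 0% of all genes did. Without the vehicle MCHM-104, 5 list genes passed after crude MCHM. After PPH 78 of all 11264 tested genes rose and 151 fell, 2.03% in all. Among 25 tested glucocorticoid-induced genes 1 rose there. Pck1, which encodes the enzyme that commits carbon to glucose synthesis in kidney, went from 12.86 to 13.38 (change 0.52, adjusted p = 0.0323). Ier3, a stress-response gene, was the 1 of 10 immediate early genes to fall (−0.49, adjusted p = 0.0334), and the median of that list was −0.351 beside −0.0256 for all genes. The metallothionein list, with 9 genes tested, had a median of 0.213 with 0 genes called. Of the glucocorticoid-induced genes that did not pass, Klf15 was 0.43 (adjusted p = 0.107) and Cdkn1a −0.37 (adjusted p = 0.135). Slc12a3, the thiazide-sensitive salt transporter, was −0.41 (adjusted p = 0.098). The receptor and chaperone, corticosteroid metabolism, kidney target and clock lists, with 10, 4, 11 and 12 genes tested, held 0 calls. Of the 2 calls after PPH, 0 remained without PPH-205, PPH-206, PPH-233 or PPH-236, and 1 list gene was called without PPH-234.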

How the data were processed

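Expression was measured on Affymetrix arrays of rat liver and kidney. The authors deposited log2 values made by RMA (background correction, quantile normalization and summary per probe set), per the submitters' processing notes. Its version, and whether tissues or chemical sets were processed together, are not given in the sources used here. The 7 genes and the gene lists were chosen with earlier results of these data known.

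The deposited log2 values were used unchanged. For each gene the brightest probe set of a tissue was kept, from 20832 probe sets with 1 symbol (436 with several and 9831 unnamed were not used). Genes were tested where above the 40th percentile of their tissue (4.69 in liver and 4.66 in kidney) in 3 or more arrays of a fit. limma 3.58.1 in R 4.3.3 (lmFit, eBayes; two-sided, Benjamini-Hochberg adjusted p under 0.05 over all genes tested) compared each dose with its own vehicle in 1 fit per tissue and chemical, tested dose-rank trends, and tested differences between chemicals, vehicles and tissues as contrasts in joint fits. Intervals are 95%. Correlations between organs used 100000 permutations within groups in Python 3.11.15. Members are named throughout, with up to 3 genes per list and comparison with the smallest adjusted p and the 3 genes most like each member. Alternatives were no filter, the mean of a gene's probe sets, array weights, a further quantile normalization, a joint fit of the chemicals, log10 dose trends, each array left out, and the replicate number as a block. The beta-actin difference as a covariate was added after the data were seen. The fits were tested on simulated data. The number of arrays limits the precision. Motifs were searched in RefSeq promoters of GRCr8, and Nr3c1 and Hsd11b1 were not analysed there.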

Additional observations from a re-analysis of the deposited data

Results flagged for a closer look

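Of 210 combinations of gene, tissue and group with 4 or 5 arrays, 13 held an array far from the others of its group by Dixon's criterion, and chance gives about 1 in 20 groups. They fell in 6 of the 7 genes.

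In liver, Mt1 read 5.69 in crude MCHM 10 mg/kg array MCHM-123, where the others read 6.77 to 6.89, 7.07 in PPH 10 mg/kg array PPH-216 (others 5.82 to 5.97) and 5.80 in PPH 1000 mg/kg array PPH-237 (others 6.36 to 6.48). Sgk1 read 10.93 in crude MCHM 10 mg/kg array MCHM-125 (others 10.03 to 10.16). Nr3c1 read 10.05 in MCHM 100 mg/kg replicate 29 (others 9.36 to 9.43) and 9.58 in crude MCHM 1 mg/kg array MCHM-120 (others 9.25 to 9.30). Hsd11b1 read 13.30 in crude MCHM 500 mg/kg array MCHM-144 (others 13.19 to 13.21) and 13.24 in PPH 500 mg/kg array PPH-230 (others 13.08 to 13.11). Dusp1 read 11.35 in MCHM 1 mg/kg replicate 19 (others 8.38 to 8.77) and 12.002 in PPH 1000 mg/kg array PPH-235 (others 8.78 to 8.97).

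In kidney, Mt1 read 6.99 in MCHM 1 mg/kg replicate 20 (others 5.62 to 5.85), Tsc22d3 read 8.88 in PPH 1000 mg/kg array PPH-237 (others 9.53 to 9.59) and Nr3c1 read 8.85 in PPH 10 mg/kg array PPH-217 (others 8.95 to 8.97). PPH-237 appears in both organs, low for Mt1 in liver and for Tsc22d3 in kidney.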

How the results depend on the processing

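At the highest doses the count of called genes among the 7 stayed at 0 under most alternatives. It was 1 for kidney PPH (Fkbp5) with all chemicals in 1 fit, 1 for liver crude MCHM (Tsc22d3) with array weights, and with single arrays left out it ran from 0 to 2 for kidney PPH, from 0 to 2 for its trend and from 0 to 1 for liver crude MCHM. Called vehicle differences, 1 in each tissue, became 2 in kidney and 3 in liver with array weights, and ran from 0 to 2 in both with arrays left out (2 without kidney vehicle MCHM-3 or crude MCHM-104, or without liver vehicle PPH-202 or PPH-206). Pathway genes called in kidney after crude MCHM, 0 in the report, were 1 with all chemicals in 1 fit and 5 with array weights. With arrays left out they ran from 0 to 5 there, from 0 to 3 in kidney PPH, from 1 to 3 in liver MCHM, from 1 to 4 in liver PPH and from 0 to 1 in liver crude MCHM. The causes were not tested.

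Signs turned only for changes that lay between −0.14 (Nr3c1 in liver PPH) and 0.13 (Sgk1 in liver crude MCHM) in the fits reported above. Dusp1 in liver crude MCHM was 0.042 with the mean of probe sets. Hsd11b1 was −0.0016 with array weights in liver MCHM, and −0.013 with them and −0.0011 with the beta-actin covariate in liver crude MCHM. Nr3c1 in kidney MCHM was −0.012 with array weights, −0.0034 with beta-actin, −0.037 with the mean of probe sets and −0.0059 after quantile normalization, and in kidney PPH −0.029 with beta-actin and −0.12 with the mean of probe sets. That mean takes in the Nr3c1 probe set that lay below the filter level in every kidney. Leaving out arrays moved Dusp1 from −0.49 to 0.26, Fkbp5 from −0.23 to 0.0075, Hsd11b1 from −0.052 to 0.030 and Sgk1 from −0.16 to 0.48 in liver crude MCHM, and Hsd11b1 from −0.038 to 0.046 in liver MCHM. In liver PPH it moved Hsd11b1 from −0.054 to 0.017, Nr3c1 from −0.22 to 0.011, Sgk1 from −0.37 to 0.23 and Tsc22d3 from −0.042 to 0.15. Nr3c1 moved from −0.057 to 0.064 in kidney MCHM and from −0.023 to 0.055 in kidney PPH.

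In tissue comparisons with a replicate block (the label number), 0 of the 7 genes were called for each chemical, as without it, and 17, 48 and 152 of all genes were called for MCHM, crude MCHM and PPH. The block correlations were 0.0858, 0.058 and 0.0899. As a hint from the data and not the design, each number was compared with the numbers of its own dose group only. Of 65 numbers, 61 correlated best with their own number over all genes and 65 over the 500 most variable. With so few candidates in a group some matches arise by chance, and where a group holds 2 numbers both match or both miss. Only 48 had a correlation over 0.1 (median 0.141, lowest −0.0448). The 4 relations between organs kept an unadjusted permutation p under 0.05 with the mean of probe sets, further quantile normalization and centring on the chemical set, where Mt1 had r = 0.316. Groups of 2 to 5 arrays limit what could be resolved.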
